A study of Danio rerio with 68 samples.

Results

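The genes mcm2, mcm3, mcm4, mcm5, mcm6 and mcm7 were followed in brain, liver and skin of male zebrafish given rotenone, an inhibitor of mitochondrial complex I. They were taken by symbol from the deposited count table. All 6 symbols were found, each on 1 row, among 32677 genes. Their identifiers were ENSDARG00000015911 (mcm2), ENSDARG00000024204 (mcm3), ENSDARG00000040041 (mcm4), ENSDARG00000019507 (mcm5), ENSDARG00000057683 (mcm6) and ENSDARG00000035761 (mcm7). A further row, MCM3 (2 of 2), carries the symbol of a similar mcm3 copy. Reads may have been split between that row and mcm3, so the values of both are uncertain.

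Mcm2 to Mcm7 form the ring-shaped helicase that unwinds DNA at replication forks. In licensing, the origin recognition complex with Cdc6 and Cdt1 loads the ring onto DNA in G1 phase, and Cdc45 and the GINS complex activate it in S phase. The transcripts are high in cycling cells, are induced by E2F factors at entry into the cell cycle and decline when cells leave it, so tissues with much cell renewal such as epidermis carry more of them than tissues of resting cells.

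Rotenone fish were 36 months old and were kept at 3.75 nM rotenone for 3 or 8 weeks. Controls of 36 months and of 12 months were kept for the same times, with DMSO, the solvent, per the protocol. The treatment label of the controls reads none. All fish were male, and the labels used here give neither a strain nor the number of tanks. In brain and in skin the groups held 6 rotenone fish and 4 controls of 36 months and 3 of 12 months at 8 weeks, and 5, 3 and 3 at 3 weeks. For liver these numbers were 6, 3 and 3 at 8 weeks and 4, 2 and 2 at 3 weeks.

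The 68 libraries had totals of 24.1 to 54.9 M counts each. The brain marker list took 1.18% to 2.48% of the counts of brains and at most 0.0382% of those of other tissues. The liver list took 4.71% to 21.2% of liver counts and the skin list 2.58% to 6.35% of skin counts, so each tissue held its own markers. A 12-month control skin of 3 weeks (replicate 1) also held 1.47% liver markers, against at most 0.0277% in the other skins, and was not set apart. A total of 5 libraries stood apart: 2 rotenone brains of 3 weeks (replicates 3 and 4, where long transcripts were under-represented, at -0.0474 and -0.0911 log2 units per doubling of length against -0.0261 to 0.0364 in the other 22 brains), 1 liver and 2 skins. The liver, a 36-month control of 8 weeks (replicate 3), held 2.32% intestine markers, against 0.111% to 0.523% in the other livers, and its 4.71% of liver markers was the lowest share of any liver. A 12-month control skin of 3 weeks (replicate 2) and a 36-month control skin of 3 weeks (replicate 3) held 0.144% and 0.0346% testis and germ cell markers, against at most 0.0218% in other skins. The second of them also held 7.36% skeletal muscle markers, against at most 3.28%. Some libraries that were not set apart had length slopes as low as these brains: 4 skins at -0.0783 to -0.0499 and 2 livers at -0.0687 and -0.0613. Results whose groups hold the 5 libraries are repeated without them.

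Per length of transcript, mcm7 was the most abundant member and the mcm3 row, without its copy, the least. In control skins the mean level was 16.6 ± 6.11 RPKM for mcm7 (reads per kilobase of transcript, scaled to the library's total; SD, n = 13) and 4.95 ± 1.85 RPKM for mcm3. The other 4 lay between these, at 11.4 ± 4.65 RPKM for mcm4, 11.3 ± 5.70 for mcm2, 10.6 ± 5.02 for mcm6 and 9.72 ± 4.59 for mcm5, which differed from each other by less than 1 SD. In control livers mcm7 averaged 4.95 ± 2.75 RPKM and mcm3 1.07 ± 1.62 (n = 10), with SDs of 2.99 to 3.65 RPKM for the other 4, above their means of 2.21 to 3.18. In control brains mcm7 stood at 10.5 ± 7.37 RPKM, while the other 5 averaged 1.26 (mcm3) to 2.07 RPKM (mcm4; n = 13). The human Mcm7 protein binds the retinoblastoma protein, and Mcm3 takes part in recruiting the ring to the origin-bound loader in yeast. mcm7 was highest in 24 of 24 brains, 17 of 20 livers and 19 of 24 skins, and mcm3 lowest in 15, 20 and 19 of them. The row MCM3 (2 of 2) averaged 6.01 RPKM in control skins, 1.03 in control livers and 1.41 in control brains, near mcm3 itself. As reads may have been split between the 2 rows, the rank of mcm3 is uncertain.

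Skin held the most of each member. Skin stood above brain for 6 of 6 in edgeR's quasi-likelihood test on the 4 control groups of each tissue, where 41.8% of all genes were called higher in skin (shares of all genes are edgeR's throughout). The log2 difference ran from 1.17 ± 0.25 for mcm7 (adjusted p = 2.94e-05) to 3.07 ± 0.31 for mcm2 (adjusted p = 2.47e-13; SE). This fit treated tissues of the same fish as independent libraries. With fish as a block, the number of members called stayed within 1.5 times in 5 of 6 comparisons between tissues. Skin also stood above liver for 6 of 6, with 40.6% of genes called higher, by 0.60 ± 0.27 (mcm7, adjusted p = 0.0435 in edgeR) to 1.59 ± 0.34 on the log2 scale (mcm3, adjusted p = 5.86e-05). The median gene stood at 0.27 in that comparison. Without the libraries standing apart 5 of 6 remained called, and mcm7, at 0.59, was not (adjusted p = 0.0652). Liver stood above brain for 6 of 6, with 37.2% of genes called higher, by 0.57 ± 0.26 (mcm7, adjusted p = 0.0432 in edgeR) to 2.30 ± 0.24 (mcm5, adjusted p = 5.95e-13). Without the libraries standing apart 4 of 6 were called, and mcm3, at 0.16 instead of 0.74, was not (adjusted p = 0.643). The place of brain and liver for mcm3 and mcm7 turned with the scaling: edgeR's TMM scaling put liver higher, while relative to the library total control livers averaged 4.95 RPKM of mcm7 and 1.07 of mcm3, against 10.5 and 1.26 RPKM in control brains. With RLE scaling neither was called (0.40 for mcm7, adjusted p = 0.154 in edgeR, and 0.58 for mcm3, adjusted p = 0.104). For mcm2, mcm4 and mcm6, control livers had higher mean RPKM than control brains but lower medians. The medians were 1.32 against 1.62 for mcm2, 1.33 against 1.81 for mcm4 and 0.974 against 1.67 for mcm6. At 8 weeks alone their liver means were lower too, at 1.18 to 1.63 against 1.62 to 1.90 RPKM. The median of mcm5 was 1.83 RPKM in liver and 1.34 in brain. In bulk tissue, fewer cells of a type and less RNA per cell cannot be told apart.

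**Figure D1:**
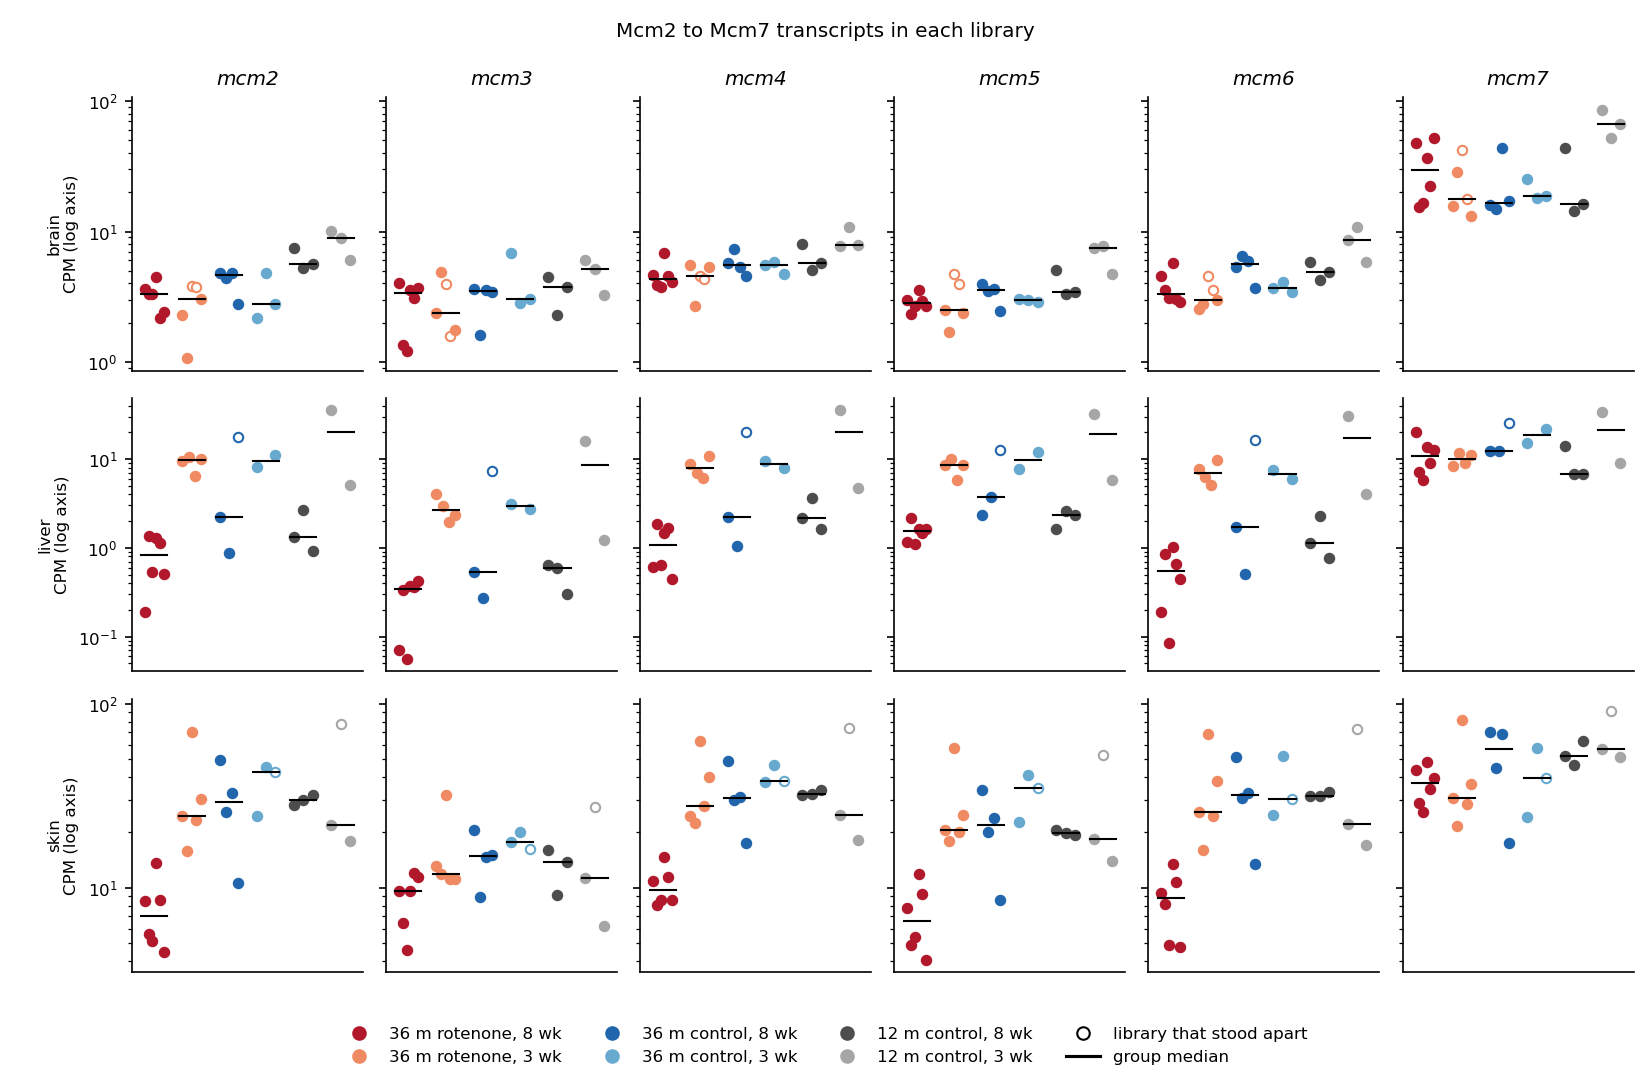
CPM (counts scaled to the library total, log axis) of each member (columns) in brain, liver and skin (rows), 1 point per library, with the group median as a line and the 5 libraries that stood apart as open points. In skin the 6 rotenone fish of 8 weeks lie between 4.48 and 13.7 CPM for mcm2, below all 5 rotenone fish of 3 weeks, while mcm7 overlaps between these groups.

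After 8 weeks of rotenone, 4 of the 6 transcripts were lower in skin. mcm2, mcm4, mcm5 and mcm6 fell by 1.67 to 2.02 on the log2 scale, while mcm3 and mcm7 did not pass the test. mcm2, whose protein closes the gate of the ring together with Mcm5, had 4.48 to 13.7 CPM (counts scaled to the library total) in the 6 rotenone skins (median 7.04), against 10.6, 25.9, 32.6 and 49.3 CPM in the 4 control skins of 36 months. mcm5 had 4.08 to 11.8 CPM in rotenone skins (median 6.59), against 8.65, 20.2, 24.0 and 34.0 CPM in control skins. For both genes the overlap came from 1 control skin, replicate 4, which was the lowest control.

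mcm4 and mcm6, whose proteins form with Mcm7 the subcomplex that unwinds DNA in vitro, did not overlap between the groups. mcm4 had 8.09 to 14.7 CPM in rotenone skins (median 9.74), against 17.6, 30.2, 31.1 and 48.8 CPM in controls. mcm6 had 4.75 to 13.4 CPM in rotenone skins (median 8.78), against 13.5, 30.9, 33.0 and 51.3 CPM in controls. The highest rotenone skin for mcm6 and the lowest control were almost level. Among all genes, 2.35% were lower without overlap of the groups.

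The log2 fold changes were -2.02 ± 0.42 for mcm2 (SE; adjusted p = 0.0100 in edgeR), -1.69 ± 0.30 for mcm4 (adjusted p = 0.00429), -1.67 ± 0.38 for mcm5 (adjusted p = 0.0150) and -1.99 ± 0.40 for mcm6 (adjusted p = 0.00827). In that comparison 2.33% of all genes were called lower, and the median gene stood at -0.01. The 2 remaining members were at -0.79 ± 0.35 (mcm3, adjusted p = 0.184 in edgeR) and -0.52 ± 0.34 (mcm7, adjusted p = 0.381). The 2 skins standing apart are in neither group but share in the spread, so leaving them out keeps the contrast's own libraries unchanged. Without them the same 4 were called (adjusted p of 0.00128 to 0.00895 in edgeR), with 3.9% of genes called lower. Leaving out each skin of the 2 groups in turn kept 3 or 4 calls, and mcm5 was lost without control replicate 1 (adjusted p = 0.0615 in edgeR). All p-values rest on the variation among fish, whose tanks are not given.

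mcm7 had 25.9 to 48.0 CPM in rotenone skins (median 37.2), against 17.6, 44.6, 68.7 and 70.6 CPM in control skins, and so overlapped. Its ratio to the median RPKM of the other 5 members was 3.09 to 8.03 in the 6 rotenone skins of 8 weeks, against 1.33 to 2.19 in the 4 controls of 36 months. In the 5 rotenone skins of 3 weeks it was 1.13 to 1.28. The ratio was looked at after the values were seen and was not tested.

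**Figure D2:**
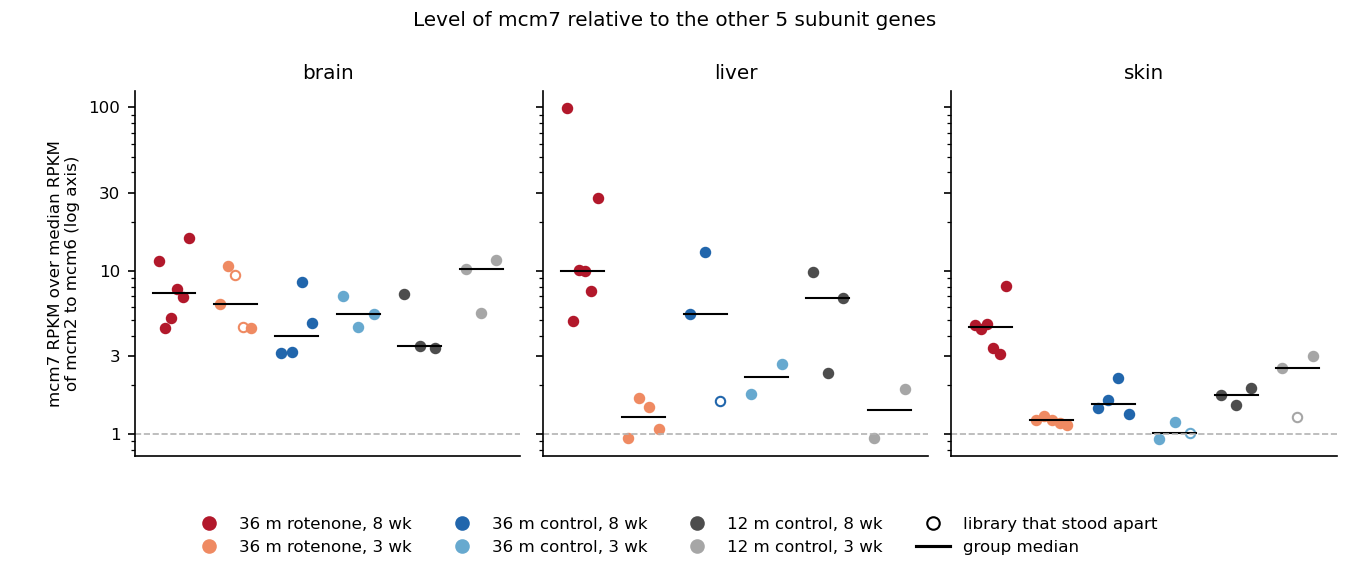
Ratio of mcm7 RPKM to the median RPKM of mcm2 to mcm6 (log axis) in each library, by tissue and group, with group medians as lines and libraries that stood apart as open points. The 6 rotenone skins of 8 weeks, at 3.09 to 8.03, lie above every other skin, the highest of which is at 3.00.

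Some genes that work with the ring were called lower in the same skins, beside 2.33% of all genes. Of 23 replication fork genes tested, 11 were called lower and none higher (median log2 fold change -0.89), among them pole2, a DNA polymerase epsilon subunit (-1.37 ± 0.33), chaf1b, a chromatin assembly factor (-1.49 ± 0.38), fen1, the flap nuclease (-1.04 ± 0.26), and rpa3, a single-strand binding protein (-0.89 ± 0.24). Of 14 genes that activate the helicase 3 were lower: gins2 (-1.86 ± 0.48), GINS4 (-1.31 ± 0.36) and wdhd1 (-1.54 ± 0.37). Of 10 genes of origin recognition and loading 2 were lower, orc1 (-1.23 ± 0.29) and orc5 (-0.90 ± 0.25). Of 5 Mcm relatives MCM3 (2 of 2) (-1.03 ± 0.30, adjusted p = 0.0499 in edgeR) and mcm9, a helicase of DNA repair (-1.46 ± 0.40), were lower.

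Of 16 mitosis genes none was called in either direction (median -0.46), and MKI67, the proliferation marker, was at -0.26 ± 0.37 (adjusted p = 0.724 in edgeR). Among 32 regulators of the G1 to S step, the cyclin gene ccnd2a (0.98 ± 0.14) and the inhibitor gene cdkn1ba (0.67 ± 0.14) were higher. In the same list rb1, the retinoblastoma gene (-0.76 ± 0.18), was lower. Of all genes 2.96% were called higher and 2.33% lower. The 2 skins standing apart are in neither group but share in the spread. Without them 17 fork genes, 6 activation genes, 4 relatives and 4 regulators were lower, beside 3.9% of all genes instead of 2.33%. Whether the lists differ from each other was not tested. Leukocyte markers took 0.0305% to 0.0536% of the counts of rotenone skins and 0.0207% to 0.0404% of control skins. Skeletal muscle markers took 0.327% to 1.08% in rotenone skins and 0.847% to 2.37% in control skins. Skin markers took 3.92% to 6.35% (median 4.76%) in rotenone skins and 2.58% to 5.38% (median 3.14%) in control skins. The part of these lists in the result was not tested. Length slopes, a sign of RNA quality, were 0.0076 to 0.0714 in 5 of the 6 rotenone skins and -0.0332 in the other, against -0.0556, -0.0407, -0.0276 and 0.0216 in the 4 control skins. Their part in the result was not tested either.

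After 3 weeks of rotenone no member was called in any of the 3 tissues in edgeR, DESeq2 or voom, nor had any an unadjusted p under 0.05 in edgeR. edgeR and voom called 0% of all genes, and DESeq2 called 37 genes in brain, 29 in liver and 96 in skin. In skin the log2 fold changes were -0.22 to -0.01, with SEs of 0.34 to 0.47, and -0.21 to 0.01 without the skins standing apart. mcm2 had 16.0 to 69.9 CPM in the 5 rotenone skins (median 24.6), against 24.6, 42.5 and 45.2 CPM in the 3 controls. Rotenone replicate 3 was the highest of its group for all 6 members.

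The change of the rotenone effect between 3 and 8 weeks in skin had log2 values of -0.51 (mcm7) to -1.94 (mcm6), and no member was called (0% of all genes); without the skins standing apart it was -0.54 (mcm7) to -1.98 (mcm2), again with no call. Of the 6, 4 had an unadjusted p under 0.05 in edgeR, as did 2410 of 22682 genes. Neither DESeq2 nor voom called any of the 6. Within rotenone fish the later skins were lower. At 8 weeks mcm2 stood at 4.48 to 13.7 CPM, against 16.0 to 69.9 CPM at 3 weeks, and mcm4 at 8.09 to 14.7 CPM, against 22.4 to 62.9 CPM. The groups did not overlap for mcm2, mcm4, mcm5 and mcm6, nor in this direction for 3.61% of all genes.

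The fold changes of 8 over 3 weeks in rotenone skins were -2.17 ± 0.41 for mcm2 (SE; adjusted p = 0.00229 in edgeR), -1.84 ± 0.29 for mcm4 (adjusted p = 0.000763), -2.04 ± 0.36 for mcm5 (adjusted p = 0.00170) and -2.09 ± 0.38 for mcm6 (adjusted p = 0.00206), with 8.12% of all genes called lower. mcm3 (-0.87 ± 0.33, adjusted p = 0.0885 in edgeR) and mcm7 (-0.17 ± 0.32, adjusted p = 0.793) were not called. The same 4 were called with each library left out in turn. Skeletal muscle markers took 0.327% to 1.08% of the counts of rotenone skins at 8 weeks, against 0.873% to 3.28% at 3 weeks. Skin markers took 3.92% to 6.35% (median 4.76%) at 8 weeks, against 2.90% to 4.43% (median 3.15%) at 3 weeks. Length slopes were 0.0076 to 0.0714 in 5 of 6 skins and -0.0332 in the other at 8 weeks, against -0.0601 to -0.0004 at 3 weeks. The part of the markers and slopes in the result was not tested. This comparison shares its 6 later skins with that of rotenone and control, and in it 11 of 23 fork genes, 5 of 10 loading genes and 0 of 16 mitosis genes were lower. Control skins gave no call between 8 and 3 weeks in edgeR, DESeq2 or voom, at 36 months (0.22% of genes called in either direction; log2 values of -0.60 to 0.34; 0 of 6 with an unadjusted p under 0.05; -0.51 to 0.37 without the skin standing apart) or at 12 months (0% called; -0.34 to -0.04; 0 of 6). Without the skins standing apart, 4 members of the 12-month controls lay higher at 8 weeks without overlap (mcm2, mcm4, mcm5 and mcm6 at 0.29 to 0.69), as did 14.9% of genes, and none was called. Time in the experiment and anything else that differed between the 2 samplings cannot be told apart.

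**Figure D3:**
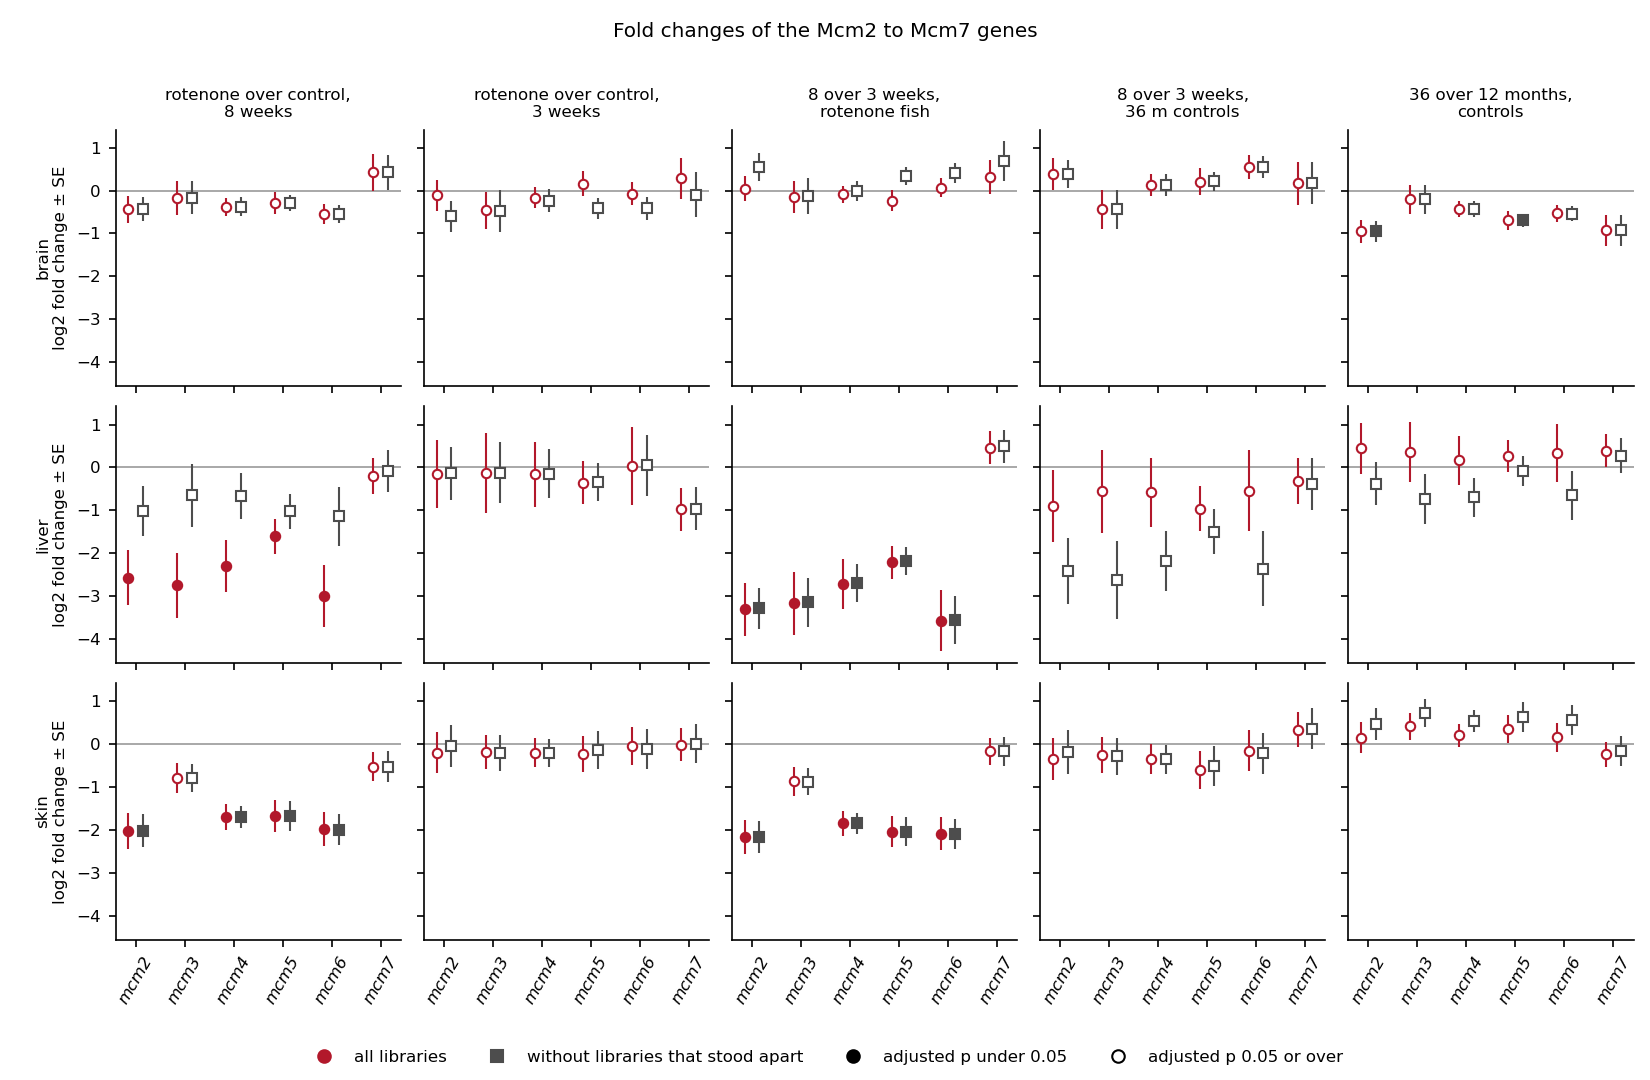
Log2 fold changes (± SE) of the 6 members in 5 comparisons (columns) and 3 tissues (rows), from all libraries (red circles) and without the libraries that stood apart (grey squares); filled symbols have an adjusted p under 0.05 in edgeR. In liver after 8 weeks of rotenone the 5 filled circles at -1.61 to -3.00 have open squares at -0.65 to -1.15 beside them. The liver left out is a control of that contrast. The skins left out are in neither group of the 8-week rotenone contrast in skin, so the 2 fits there hold the same libraries of the contrast.

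In liver after 8 weeks of rotenone, 5 of 6 members were called lower with all libraries and none without the control liver that held intestine markers. mcm2 had 0.188 to 1.37 CPM in the 6 rotenone livers (median 0.828), against 2.21, 0.883 and 17.6 CPM in the 3 control livers of 36 months. mcm6 had 0.0844 to 1.01 CPM in rotenone livers (median 0.550), against 1.70, 0.510 and 16.4 CPM in controls. The third control, the one standing apart, was the highest of the 3 for all 6 members, at 7.28 CPM for mcm3 against 0.272 and 0.529 CPM in the other controls.

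With all libraries the log2 fold changes were -2.57 ± 0.64 for mcm2, -2.75 ± 0.76 for mcm3, -2.30 ± 0.61 for mcm4, -1.61 ± 0.40 for mcm5 and -3.00 ± 0.73 for mcm6 (adjusted p of 0.0216 to 0.0383 in edgeR), with 5.19% of all genes called lower. mcm7 was at -0.20 ± 0.42 (adjusted p = 0.817 in edgeR). Without the liver standing apart they were -1.01 for mcm2, -0.65 for mcm3, -0.66 for mcm4, -1.02 for mcm5, -1.15 for mcm6 and -0.08 for mcm7, and none was called, though 3.38% of genes were called lower. Then 1 of 6, mcm5, had an unadjusted p under 0.05 in edgeR, as did 3993 of 19857 genes. mcm5 was the 1 member without overlap of the groups, at 1.097 to 2.19 CPM in rotenone livers (median 1.56), against 2.32, 3.77 and 12.6 CPM in controls; 8.66% of genes were lower in this way. Without rotenone replicate 1 or replicate 3, 3 members were called in each case. The counts were small, with 2 to 15 reads for mcm3 and 3 to 41 for mcm6 in rotenone livers. Intestine markers took 0.130% to 0.459% of the counts of rotenone livers, and 2.32% of those of the control standing apart; their part in the result was not tested. Length slopes did not overlap, at 0.0072 to 0.0480 in rotenone livers, against -0.0687, -0.0266 and -0.0002 in control livers, and their part was not tested.

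The calls in the replication lists were found with the same library and lost without it. Without it the contrast held 2 instead of 3 controls. The part of its content and of the smaller group in the change was not tested. With it, 4 of 23 fork genes (rfc4 at -1.53 ± 0.33), 3 of 10 loading genes (orc1 at -1.97 ± 0.51, cdt1 at -1.73 ± 0.49) and 1 of 5 relatives (mcm9 at -2.46 ± 0.67) were lower, and 0 of 16 mitosis genes. Without it, 0 in each of these lists were called. Of all genes 5.19% were called lower with it and 3.38% without it, a share at which lists of this size may hold no call. pcna, the sliding clamp gene, had 65.2 CPM in that library and 3.60 to 10.1 CPM in the other control livers of 8 weeks of both ages. It was at -1.26 ± 0.52 with all libraries and at 0.34 ± 0.40 without that library, and was called in neither fit (adjusted p of 0.152 and 0.661 in edgeR).

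**Figure D4:**
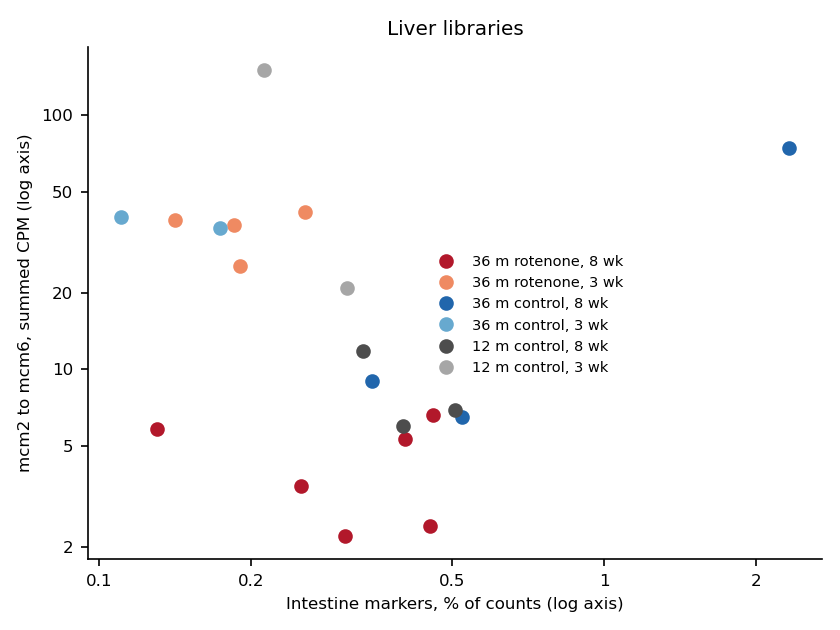
Summed CPM of mcm2 to mcm6 against the share of counts in the intestine marker list, 1 point per liver library, both axes log. The 36-month control of 8 weeks at 2.32% intestine markers and 73.9 CPM lies away from the other 8-week livers, which hold 2.21 to 11.8 CPM; all 8 livers of 3 weeks hold 20.9 CPM or more.

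Liver levels also differed between sampling times. In rotenone fish 5 of 6 members were lower at 8 than at 3 weeks. mcm2 stood at 0.188 to 1.37 CPM in the 6 livers of 8 weeks (median 0.828), against 6.52, 9.61, 10.04 and 10.7 CPM in the 4 livers of 3 weeks. mcm6 stood at 0.0844 to 1.01 CPM (median 0.550), against 5.11, 6.28, 7.71 and 9.77 CPM. mcm7 stood at 5.77 to 19.9 CPM (median 10.7), against 8.41, 9.11, 11.04 and 11.7 CPM, and so overlapped between the times.

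The fold changes were -3.32 ± 0.62 for mcm2 (SE; adjusted p = 0.00423 in edgeR), -3.18 ± 0.73 for mcm3 (adjusted p = 0.0129), -2.72 ± 0.58 for mcm4 (adjusted p = 0.00881), -2.21 ± 0.38 for mcm5 (adjusted p = 0.00250) and -3.58 ± 0.71 for mcm6 (adjusted p = 0.00579), while mcm7 was at 0.46 ± 0.39 (adjusted p = 0.532). In that comparison 6.14% of genes were called lower. The 5 genes did not overlap between the times, like 12% of all genes, and were called with each library left out. mcm7 over the median of the other 5 members per length was 4.89 to 99.5 in rotenone livers of 8 weeks, against 0.942 to 1.65 at 3 weeks. The 99.5 came from replicate 1, where that median was only 0.0631 RPKM. In control livers the ratio was 1.58 to 13.1 (36 months) and 2.37 to 9.85 (12 months) at 8 weeks. At 3 weeks it was 1.75 to 2.70 and 0.941 to 1.88 in these controls.

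In the same contrast 12 of 23 fork genes were lower, among them rpa1, a single-strand binding protein (-1.50 ± 0.26), fen1 (-1.97 ± 0.41), rpa3 (-1.69 ± 0.38) and rfc4, a clamp loader subunit (-1.34 ± 0.31). Of 10 loading genes 6 were lower, with orc1 at -2.72 ± 0.49, orc5 at -1.78 ± 0.33, ORC2 (1 of 2) at -1.39 ± 0.34 and cdt1, whose protein brings the ring to origins, at -2.28 ± 0.46. Of 14 activation genes gins2 was lower (-3.15 ± 0.78), and of 5 relatives MCM3 (2 of 2) (-3.40 ± 0.73) and mcm9 (-2.39 ± 0.64). Of 31 regulators 4 were lower: ccne2 (-2.45 ± 0.50), cdk2 (-1.84 ± 0.44), CDK4 (-0.75 ± 0.23) and e2f5 (-2.11 ± 0.64). Of 16 mitosis genes 0 were called (median -0.95). Of all genes 6.14% were called lower, a share at which a list of this size may hold no call, and the median gene stood at -0.03. Leukocyte markers took 0.00361% to 0.0211% of the counts of rotenone livers at 8 weeks and 0.00564% to 0.0485% at 3 weeks. Length slopes were 0.0072 to 0.0480 at 8 weeks, against -0.0442, -0.0284, -0.0192 and 0.0762 at 3 weeks. The part of both in the result was not tested.

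Control livers had the same direction with fewer calls. At 12 months mcm5 had 1.63, 2.62 and 2.34 CPM at 8 weeks, against 32.6 and 5.78 CPM at 3 weeks, and was called lower (-2.48 ± 0.53, adjusted p = 0.0226 in edgeR; 0.768% of genes called lower). mcm2 (-3.00 ± 0.86), mcm3 (-3.43 ± 1.02), mcm4 (-2.40 ± 0.81) and mcm6 (-3.02 ± 0.97) had adjusted p of 0.0741 to 0.124 in edgeR. All 5 genes did not overlap, but neither did 41.7% of all genes. Without the liver standing apart, which is in neither group but shares in the spread, all 5 were called (adjusted p of 0.0093 to 0.0319 in edgeR; 2.18% of genes called lower). The 12-month liver of 3 weeks with the high values (replicate 1, 35.3 CPM of mcm2 against 5.15 CPM in replicate 2) also held the highest share of leukocyte markers of any liver, 0.0669%, whose part was not tested. Without it mcm5 was at -1.05 (adjusted p = 0.634 in edgeR), and the call was also lost without any 1 of the 3 livers of 8 weeks.

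At 36 months control livers gave no call between 8 and 3 weeks in edgeR, DESeq2 or voom (log2 values of -0.96 to -0.31; 0 of 6 with an unadjusted p under 0.05 in edgeR). Of all genes edgeR and voom called 0% and DESeq2 called 748. Without the liver standing apart all 6 members were lower at 8 weeks without overlap, as were 33.5% of genes, at -2.62 (mcm3) to -0.39 (mcm7). None was called then (adjusted p of 0.153 to 0.793 in edgeR), with 0.146% of genes called in either direction. An unadjusted p under 0.05 in edgeR was found for 5 of 6, and for 3164 of 19857 genes. After 3 weeks of rotenone the liver values were -0.98 ± 0.50 for mcm7 and -0.36 to 0.04 for the other 5. mcm7 had 8.41, 9.11, 11.04 and 11.7 CPM in rotenone livers of 3 weeks, against 15.1 and 21.8 CPM in the 2 controls, without overlap; 2.74% of genes were lower in this way. The change of the rotenone effect between the times was not called in liver for any member (0.0693% of genes called). Its log2 values were -3.04 (mcm6) to 0.78 (mcm7), and -1.19 to 0.88 without the liver standing apart. With all libraries 2 of 6 had an unadjusted p under 0.05 in edgeR, as did 2410 of 20190 genes. DESeq2 and voom called none of the 6.

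Brain gave no call with rotenone. At 3 weeks the log2 values were -0.46 (mcm3) to 0.29 (mcm7) with all brains and -0.60 to -0.09 without the 2 rotenone brains standing apart. In that fit mcm5 and mcm6 lay lower without overlap, as did 3.88% of genes. The change of the rotenone effect between the times was -0.48 to 0.29, with no call in edgeR, DESeq2 or voom and no unadjusted p under 0.05 (0% of genes called). Without those 2 brains it was -0.14 to 0.52, with 4 of 6 values above 0 instead of 2. After 8 weeks mcm6 had 2.89 to 5.74 CPM in the 6 rotenone brains (median 3.32), against 3.67, 5.37, 5.95 and 6.52 CPM in the 4 controls of 36 months, and its log2 fold change of -0.55 ± 0.23 was not called (adjusted p = 0.577 in edgeR). The other 5 members were at -0.44 to 0.43. An unadjusted p under 0.05 in edgeR was found for 1 of 6, and for 1701 of 23032 genes. Among all genes 0.0304% were called in either direction, and DESeq2 and voom called none of the 6. Between 8 and 3 weeks no member was called in rotenone brains by edgeR, DESeq2 or voom (8.96% of genes called; 0 of 6 with an unadjusted p under 0.05), where mcm2 had 2.19 to 4.46 CPM at 8 weeks (median 3.33) and 1.07 to 3.81 CPM at 3 weeks (median 3.04). The log2 values were -0.24 to 0.31. Without the 2 brains standing apart, which are in this contrast, they were -0.13 to 0.69 (median 0.38 instead of -0.02), none was called, and 2.1% of genes were. In 36-month controls the values were -0.44 to 0.55, with 0 of 6 called by edgeR, DESeq2 or voom and 0 of 6 with an unadjusted p under 0.05 in edgeR (0.0347% of genes called). In 12-month controls mcm7 had 14.4, 16.2 and 43.7 CPM at 8 weeks, against 52.6, 66.7 and 86.2 CPM at 3 weeks, without overlap (like 11.1% of genes), and was not called by edgeR (-1.43 ± 0.54, adjusted p = 1; 0.0391% of genes called). Of the 6 members 3 had an unadjusted p under 0.05 in edgeR there, as did 800 of 23032 genes. DESeq2 called 0 members and voom 1, beside 47 and 149 of all genes.

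The rotenone contrast at 8 weeks was also compared between tissues, in 1 fit of all libraries. The liver contrast minus the brain contrast was called for mcm3 (-2.54 ± 0.77, adjusted p = 0.0369 in edgeR), mcm4 (-1.88 ± 0.59, adjusted p = 0.0452) and mcm6 (-2.40 ± 0.71, adjusted p = 0.0326), with 3.91% of genes called lower. DESeq2 called 4 and voom none, beside 1896 and 2131 of 25628 genes in either direction. None of the 6 was called without the libraries standing apart, where the values were -0.65 to -0.21, and none with fish as a block. The skin contrast minus the brain contrast had log2 values of -1.60 (mcm2) to -0.64 (mcm3). In edgeR and in DESeq2 0 of 6 were called (0.0546% of genes called lower in edgeR). An unadjusted p under 0.05 in edgeR was found for 4 members, and for 1956 of 25628 genes. Members called by voom numbered 4, beside 1000 of 25628 genes in either direction. The liver contrast minus the skin contrast was called for 0 of 6 in edgeR, DESeq2 and voom (5.41% of genes called in either direction). Its values were -1.90 (mcm3) to 0.37 (mcm7), and 0.24 to 1.14 without the libraries standing apart. With all libraries 1 member had an unadjusted p under 0.05 in edgeR, as did 4520 of 25628 genes.

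Age was compared in controls, 36 against 12 months. Fish of the 2 ages hatched at different times, and age and cohort cannot be told apart. In brain mcm2 had 2.17, 4.80 and 2.79 CPM at 36 months and 3 weeks, against 10.1, 8.92 and 6.09 CPM at 12 months. mcm7 had 25.5, 18.01 and 18.6 CPM, against 86.2, 52.6 and 66.7 CPM. mcm2, mcm4, mcm5, mcm6 and mcm7 did not overlap between the ages there, like 7.84% of all genes.

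With both times pooled the log2 difference in brain was -0.95 ± 0.27 for mcm2 (adjusted p = 0.0818 in edgeR), -0.69 ± 0.22 for mcm5 (adjusted p = 0.130), -0.92 ± 0.37 for mcm7 (adjusted p = 0.250), -0.53 ± 0.20 for mcm6, -0.42 ± 0.19 for mcm4 and -0.20 ± 0.34 for mcm3. So 0 of 6 were called, while 1.98% of all genes were called in either direction. An unadjusted p under 0.05 in edgeR was found for 5 of 6, and for 2937 of 23032 genes. DESeq2 and voom each called 2 members, beside 985 and 1969 of 23032 genes. Without the 2 rotenone brains standing apart, which are in neither age group but share in the spread, mcm2 (adjusted p = 0.0327 in edgeR) and mcm5 (adjusted p = 0.0178) were called lower at 36 months, like 1.41% of genes. At 3 weeks alone the values were -1.72 to -0.71 for the 5 genes and -0.19 for mcm3. None was called in edgeR (0.0304% of genes called in either direction). DESeq2 called 2 members, beside 223 of 23032 genes, and voom called 3, beside 245 genes. At 8 weeks the values were -0.55 to 0.10 and none was called in edgeR, DESeq2 or voom (0.122% of genes called in either direction). There 0 of 6 had an unadjusted p under 0.05 in edgeR. The brain mitosis list had a median of -0.48 over 17 genes in the pooled contrast, none of them called, with MKI67 at -0.88 ± 0.31 (adjusted p = 0.177 in edgeR), while pcna was at -0.07 ± 0.13.

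In liver and in skin no member was called with age, in the pooled contrast or at either time, by edgeR, DESeq2 or voom. At single times 0.0248% (3 weeks) and 0.0941% (8 weeks) of genes were called in liver and 0.362% and 0.022% in skin. There 1 member, mcm5 in liver at 8 weeks, had an unadjusted p under 0.05 in edgeR, as did 2913 of 20190 genes in that liver contrast. The pooled log2 values were 0.17 to 0.45 in liver (0.926% of genes called in either direction; 0 of 6 members with an unadjusted p under 0.05) and became -0.74 to 0.28 without the liver standing apart. They were -0.24 to 0.42 in skin (2.41% of genes called; 0 of 6) and -0.16 to 0.74 without the skins standing apart, and -0.25 to 0.37 without the skin with liver markers alone. Without the skins standing apart, mcm2 to mcm6 were higher at 36 months and 3 weeks without overlap, as were 14% of genes. mcm2 then had 24.6 and 45.2 CPM in 2 skins of 36 months, against 22.1 and 17.9 CPM in 2 of 12 months.

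Within a tissue, many pairs of members varied together from fish to fish after group means were removed, most of all in skin. Of the 45 relations tested (15 pairs in 3 tissues, log2 CPM, permutation within groups), 15 of 15 passed after adjustment in skin, 9 of 15 in liver and 7 of 15 in brain. The share of all gene pairs that would pass was not computed, and genes of a tissue share the depth and scaling of its libraries. Levels also differed, with a median mcm2 of 3.77 CPM in brain and 2.45 CPM in liver, against 24.6 CPM in skin. Low counts add noise that lowers r, so r is not on like terms between the tissues. Pairs among mcm2, mcm4, mcm5 and mcm6 had Pearson's r of 0.94 to 0.99 in skin, 0.78 to 0.95 in liver and 0.58 to 0.76 in brain. In brain mcm7 followed mcm3 (r = 0.73, Spearman's rho = 0.77, n = 24; adjusted permutation p = 0.00196 and 0.000777). Its relations with the other 4 had r of 0.06 to 0.37 and did not pass. mcm3 had r of -0.27 to 0.21 with those 4. In liver mcm7 had r of 0.34 to 0.54 with the same 4. Without the libraries standing apart the pairs among the 4 had r of 0.93 to 0.98 in skin, 0.70 to 0.92 in liver and 0.62 to 0.73 in brain, and brain mcm3 and mcm7 had r = 0.72. Brain mcm7 spanned 13.3 to 86.2 CPM over the 24 fish.

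Tissues of the same fish, matched by the number in the library name, were related for some members. Of 18 relations tested by permutation within groups, brain and skin gave 4 past an adjusted p of 0.05: mcm6 (r = 0.73, rho = 0.69, adjusted p = 0.00531 and 0.0109), mcm5 (r = 0.67, rho = 0.66, adjusted p = 0.00531 and 0.00477), mcm3 (r = 0.63, rho = 0.65, adjusted p = 0.00531 and 0.0104) and mcm2 (r = 0.60, rho = 0.57, adjusted p = 0.0262 and 0.0258). Without the 2 fish farthest from the median in brain, r was 0.66 for mcm6, 0.60 for mcm5, 0.56 for mcm3 and 0.48 for mcm2. The median r over all genes was 0.15, and 92.0% to 96.3% of genes had a lower r than these 4. For mcm4 (r = 0.53, rho = 0.59) the adjusted p was 0.0528 for r and 0.0154 for rho. Brain and liver gave 1 relation, that of mcm7 (r = 0.66, rho = 0.66, n = 20; adjusted p = 0.00531 and 0.00477), with r = 0.64 without the 2 farthest fish and r = 0.74 without the libraries standing apart. The median r over all genes was 0.05 there. mcm2, mcm4, mcm5 and mcm6 had r of -0.21 to -0.12 between brain and liver, and of -0.04 to 0.09 without the libraries standing apart, where 3 of the 4 turned positive, and no member passed between liver and skin.

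**Figure D5:**
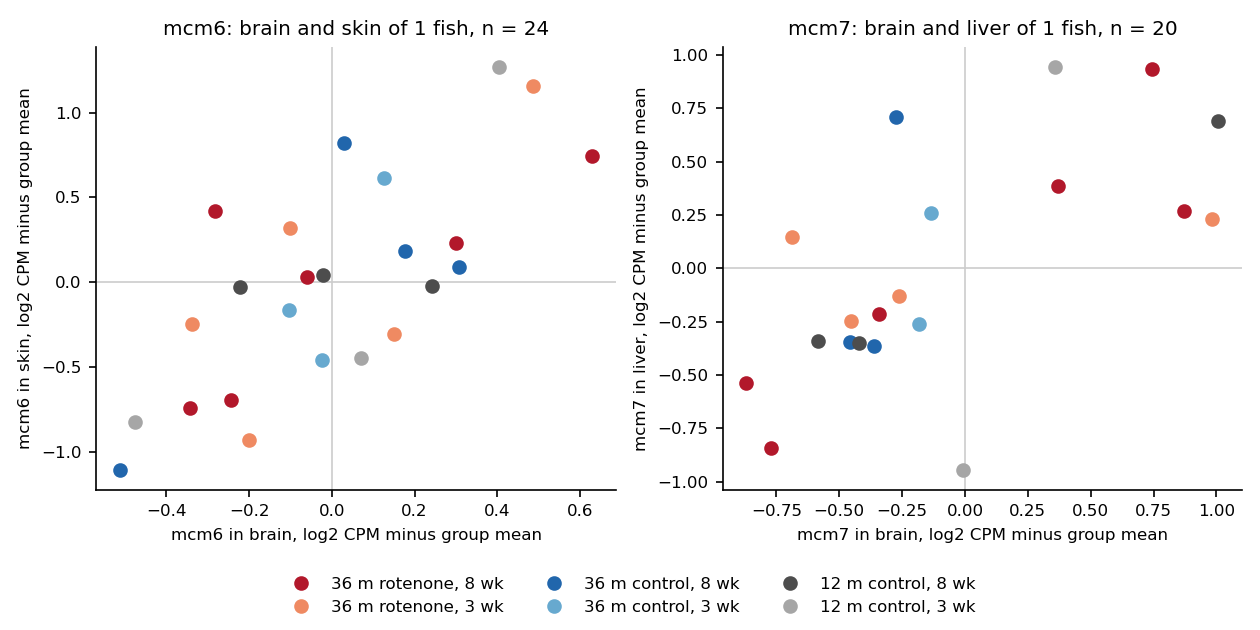
Deviation of each fish from its group mean (log2 CPM) in brain against the same fish's skin for mcm6 (left, n = 24) and liver for mcm7 (right, n = 20), coloured by group. Points run from lower left to upper right in both panels (r = 0.73 and r = 0.66).

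The named genes whose fish-to-fish pattern was most like the mean of the members over the 3 tissues were nasp, a histone chaperone (mean r = 0.81 over 24 brains, 20 livers and 24 skins), cdk2, the S phase kinase (0.81), fen1 (0.81), gins2 (0.80), pcna (0.80), hells, a chromatin remodeller (0.79), tyms, thymidylate synthase (0.79), and ube2t, a ubiquitin-conjugating enzyme (0.79). They held ranks 2 to 9 of 18686 genes; rank 1, which has no gene symbol other than a clone or accession name, is left out. For nasp r was 0.54 in brain, 0.97 in liver and 0.93 in skin. These correlations describe libraries that share their depth and scaling, and carry no test.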

How the data were processed

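Total RNA of brain, liver and skin was sequenced from TruSeq libraries, per the labels' protocols. The deposited values are raw counts for each gene and, in a second table, the authors' RPKM. The submitters' processing notes list CASAVA 1.8.2. Aligner, counter, strand setting and build: not given in the sources used here. Tests used the counts; RPKM served for levels between genes and for transcript lengths, and CPM is counts scaled to a library's total. edgeR 4.0.16 (quasi-likelihood, TMM, filterByExpr with a minimum count of 10) was fitted in R 4.3.3 per tissue over 6 groups, and over all 68 libraries between tissues, with Benjamini-Hochberg adjustment over all genes and a threshold of 0.05. It was also run on simulated counts with known changes. These held no library standing apart and no variation shared between genes, so they do not bear on such features here. Alternatives were RLE scaling, no filter, DESeq2 1.42.0, voom with quality weights (limma 3.58.1), the groups of a contrast alone, blocks, and left-out libraries. Correlations used log2 CPM (prior count 2) less group means and 100000 permutations. Shared fish numbers in the library names pair tissues: deviations correlated above 0.1 in 24 of 24 brain and skin pairs, 18 of 20 brain and liver pairs and 17 of 20 liver and skin pairs. The own number gave the best match in 22 of 24, 15 of 20 and 15 of 20 of these pairs. The members, lists and libraries set apart were chosen with earlier results of these data known. Besides the members, the named genes are up to 4 of each list with the smallest p among those called in a contrast, and the 8 most alike that have a usable symbol (ranks 2 to 9); pcna and MKI67 were picked after their values were seen. The lowest count of a member was 2 reads, for mcm3 in a rotenone liver of 8 weeks. The ± values of log2 differences are SEs of the contrast, which rest on the variation between fish, and those of RPKM are SDs.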

Additional observations from a re-analysis of the deposited data

Results flagged for a closer look

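Of 48 sets of 4 to 10 libraries (a gene in a group), 7 held a library far from the others. By chance the rule flags about 1 in 20 independent sets. These sets share libraries and hold genes that vary together, so 7 of 48 cannot be set against that rate. The 36-month rotenone skin of 3 weeks, replicate 3, was far above the other 4 for mcm2 (69.9 CPM), mcm3 (32.0 CPM), mcm5 (57.7 CPM) and mcm7 (81.5 CPM). Among the 36-month control brains of 8 weeks, replicate 2 was lowest for mcm3 (1.61 CPM) and replicate 3 highest for mcm7 (44.0 CPM). Among rotenone brains of 8 weeks, replicate 4 was highest for mcm4 (6.79 CPM).

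The rotenone contrast at 8 weeks differed between liver and brain, in the test of the difference, for mcm3 (-2.54), mcm4 (-1.88) and mcm6 (-2.40, log2 liver minus brain). All 3 calls were lost without the libraries standing apart.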

How the results depend on the processing

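RLE scaling and no filter left the number of members called within 1.5 times in all 33 comparisons, DESeq2 in 30, voom in 26, the groups of a contrast alone in 24 of 27, and the libraries standing apart, when left out, in 28. For brain age pooled, 0 calls became 2 with DESeq2, voom, the contrast's groups alone or without the libraries standing apart, and 0 to 1 with a library left out (1 without the 36-month control of 3 weeks, replicate 2). For brain age at 3 weeks, 0 became 2 with DESeq2, 3 with voom and 1 without the libraries standing apart. For brain time in 12-month controls voom gave 1. For rotenone at 8 weeks in liver, 5 became 0 with voom and without the liver standing apart, 1 with the contrast's groups alone, and 0 to 5 with a library left out. For liver time in 12-month controls, 1 became 5 with DESeq2 and without the liver standing apart, 4 with voom, 0 with the contrast's groups alone, and 0 to 1 with a library left out. Of all 20190 genes DESeq2 called 1552 and voom 1503 there, against 530 in edgeR. For liver minus brain, 3 became 0 with voom, without the libraries standing apart and with the fish number as a block, and 0 to 4 with a library left out. Liver minus skin gave 0 to 1, and skin minus brain gave 4 with voom. mcm3 in liver minus skin turned to 0.24 without the libraries standing apart and to 0.23 without the 36-month control liver of 8 weeks, replicate 3, and spanned -2.40 to 0.23 with a library left out (-1.90 with all). The cause of these changes was not tested.

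Replicate numbers within a tissue did not pair rotenone and control fish: deviations correlated above 0.1 in 1 of 3 pairs at 3 weeks and 1 of 4 at 8 weeks in brain, 1 of 2 and 0 of 3 in liver, and 0 of 3 and 1 of 4 in skin. With the replicate block the count of calls was 0 for rotenone at 8 weeks, for time in rotenone fish and for time in 12-month controls in liver, and 1 for rotenone at 8 weeks in skin; it stayed within 1.5 times in 23 of 27 comparisons. Between tissues, leaving out libraries was run for the 36-month livers and brains of 8 weeks and not for the others.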
